A study of Mus musculus with 27 samples.

Results

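Chemokines that draw neutrophils and monocytes into tissue were followed in the brain, meninges and skull of mice after ultraviolet light was shone on the head. The genes are Cxcl1, Cxcl2, Cxcl3, Cxcl5, Ccl2, Ccl3, Ccl4, Ccl5, Ccl7 and Ccl8. They were chosen by symbol with earlier results of these data known, so shares of members called are a description. All 10 were found among the 37095 rows of the count table. RNA was sequenced from 27 libraries, 3 in each of 9 groups. The 3 tissues were the brain, the meninges, which were scraped off the inside of the skullcap, and the rest of the skullcap, named skull here. In each tissue the groups were an untreated control, 0.5 h after UVB and 24 h after UVB. The light had a wavelength of 311 nm and a power of 2 mW and was aimed at the interparietal bone, a bone at the rear of the skullcap. No group carries a transgene or other agent in the labels, and strain, sex and age are not stated in the sources read. The labels do not say whether controls were handled as a sham, at what clock time tissue was taken, or whether the 3 libraries of a group came from separate animals, so p-values measure the spread between these samples, which may be technical. The design text also mentions photobiomodulation away from the cranium, and this was not analysed here.

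Chemokines are small secreted proteins that bind G protein-coupled receptors on leukocytes and direct their migration. Cxcl1, Cxcl2, Cxcl3 and Cxcl5 carry the glutamate-leucine-arginine motif ahead of the paired cysteines and act on Cxcr2, the receptor by which neutrophils leave the marrow and enter inflamed tissue. Ccl2 and Ccl7 act on Ccr2 and bring monocytes out of the bone marrow. Ccl3, its close relative Ccl4, and Ccl5 attract monocytes, macrophages and T cells, and Ccl3 and Ccl5 act on Ccr1. Mouse Ccl8 is a close relative of Ccl2 and Ccl7 that is known to signal through Ccr8. Many of these genes are induced quickly by NF-kB downstream of interleukin-1, tumour necrosis factor and Toll-like receptors, and their short-lived messages are cleared by decay factors such as Zfp36 and Zc3h12a. The skullcap holds marrow, in which neutrophils and monocytes are made, and channels through the bone link that marrow with the meninges.

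The Cxcl genes lie together on chromosome 5 of GRCm38, with Cxcl5 at 90759360 to 90761624, Cxcl3 at 90786103 to 90789600, Cxcl1 at 90891241 to 90893115 and Cxcl2 at 90903871 to 90905938. The Ccl genes lie on chromosome 11, with Ccl2, Ccl7 and Ccl8 between 82035571 and 82116799 and Ccl5, Ccl3 and Ccl4 between 83525778 and 83664683. All 10 are annotated as protein coding, and none shares exon bases with another gene. Cxcl2 and Cxcl3 resemble each other, and 5.84% of the 50-base stretches of Cxcl2 also occur in Cxcl3, so a small part of their reads could have been counted for either. The bases just before the start of 4 members are shown because they let the Cxcr2 ligands be compared with a Ccl gene that also moved. RefSeq windows of 300 bases (GRCm38.p6) were found for 5 of the 10 genes, and from each of those printed the 120 bases before the transcription start are given 5′ to 3′. Capitals mark letters that match a kappa B consensus, the sequence NF-kB binds, or TATAAA, the TATA box.
Cxcl1 (chr5:90891125-90891244, plus strand): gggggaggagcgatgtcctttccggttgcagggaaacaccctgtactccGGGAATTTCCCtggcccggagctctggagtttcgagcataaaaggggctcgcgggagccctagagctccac
Cxcl2 (chr5:90903779-90903898, plus strand): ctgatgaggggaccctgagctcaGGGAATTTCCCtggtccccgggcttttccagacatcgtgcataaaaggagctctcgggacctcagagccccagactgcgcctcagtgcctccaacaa
Cxcl3 (chr5:90785981-90786100, plus strand): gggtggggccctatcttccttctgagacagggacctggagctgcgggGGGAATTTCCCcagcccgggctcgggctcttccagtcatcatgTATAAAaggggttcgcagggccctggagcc
Ccl8 (chr11:82115065-82115184, plus strand): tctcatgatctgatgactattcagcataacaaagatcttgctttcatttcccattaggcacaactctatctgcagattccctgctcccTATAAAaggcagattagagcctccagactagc

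The window of Cxcl1 held kappa B matches on both strands that overlap and span −71 to −61 from the start. Those of Cxcl2 span −97 to −87 and those of Cxcl3 span −73 to −63. TATAAA stood at −30 to −25 in Cxcl3 and at −32 to −27 in Ccl8. The kappa B consensus was searched by its degenerate letters on both strands, and 4.51% of all 32851 promoter windows of the same length hold a match. The shares were 13.6% for TATAAA, 7.81% for the AP-1 letters TGANTCA and 8.3% for the interferon gamma activated site letters TTCNNNGAA, and neither of the last 2 motifs matched in any member's window. Ccl3 was matched too, and its window held none of the 4 motifs. A match describes letters in this window and is neither a measured site nor a cause. Entries for Cxcl5, Ccl2, Ccl4, Ccl5 and Ccl7 were not found.

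Library totals ran between 14.2 M and 27.3 M counts. The deepest library was brain control 1, and all others held at most 18.2 M. Levels are in CPM, which divides counts by library totals scaled with TMM factors, and marker lists as the summed CPM of their genes. Neuron markers summed to between 7643 and 8774 in brain, 531 to 892 in meninges and 14.9 to 30.1 in skull. Osteoblast and osteocyte markers summed to between 51011 and 94287 in skull, 13646 and 39132 in meninges and 41.7 and 76.3 in brain. The last list includes Col1a1, which fibroblasts also express, so bone and fibroblasts cannot be told apart by its sum in meninges. Skeletal muscle markers in the meninges ran from 11 to 6304. Neutrophil markers summed to between 6376 and 11118 in untreated skull, 408 and 981 in untreated meninges and 13.7 and 24.7 in untreated brain. In bulk tissue, fewer cells of a type and less RNA per cell cannot be told apart.

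Brain control 1 stood apart from the other 8 brain libraries for these genes. It held 601 counts of Cxcl2, where none of the others exceeded 6. For Ccl2 it held 645 counts and the others at most 13, for Cxcl1 424 against at most 4, and for Ccl7 257 against at most 8. Its 56 counts of Cxcl3 compare with 2 in the other 8 libraries together, which hold 120 M counts. Ccl5 had 34 counts there against at most 7, and Ccl8 had 28 against at most 4. Cxcl5 was the exception, with 17 counts in this library and between 1 and 20 in the others. The summed neutrophil markers were 24.7 CPM in brain control 1 and 13.7 and 16.7 in the other controls, with Ly6g and Stfa2l1 at 0 in all 3. The monocyte markers summed to 153 against 97.3 and 116, the list of NF-kB genes and inhibitors to 580 against 412 and 411, and the choroid plexus markers to 225 against 653 and 625. The part of these differences in the chemokine values was not tested. Results below that use the brain controls are given with and without this library.

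**Figure D1:**
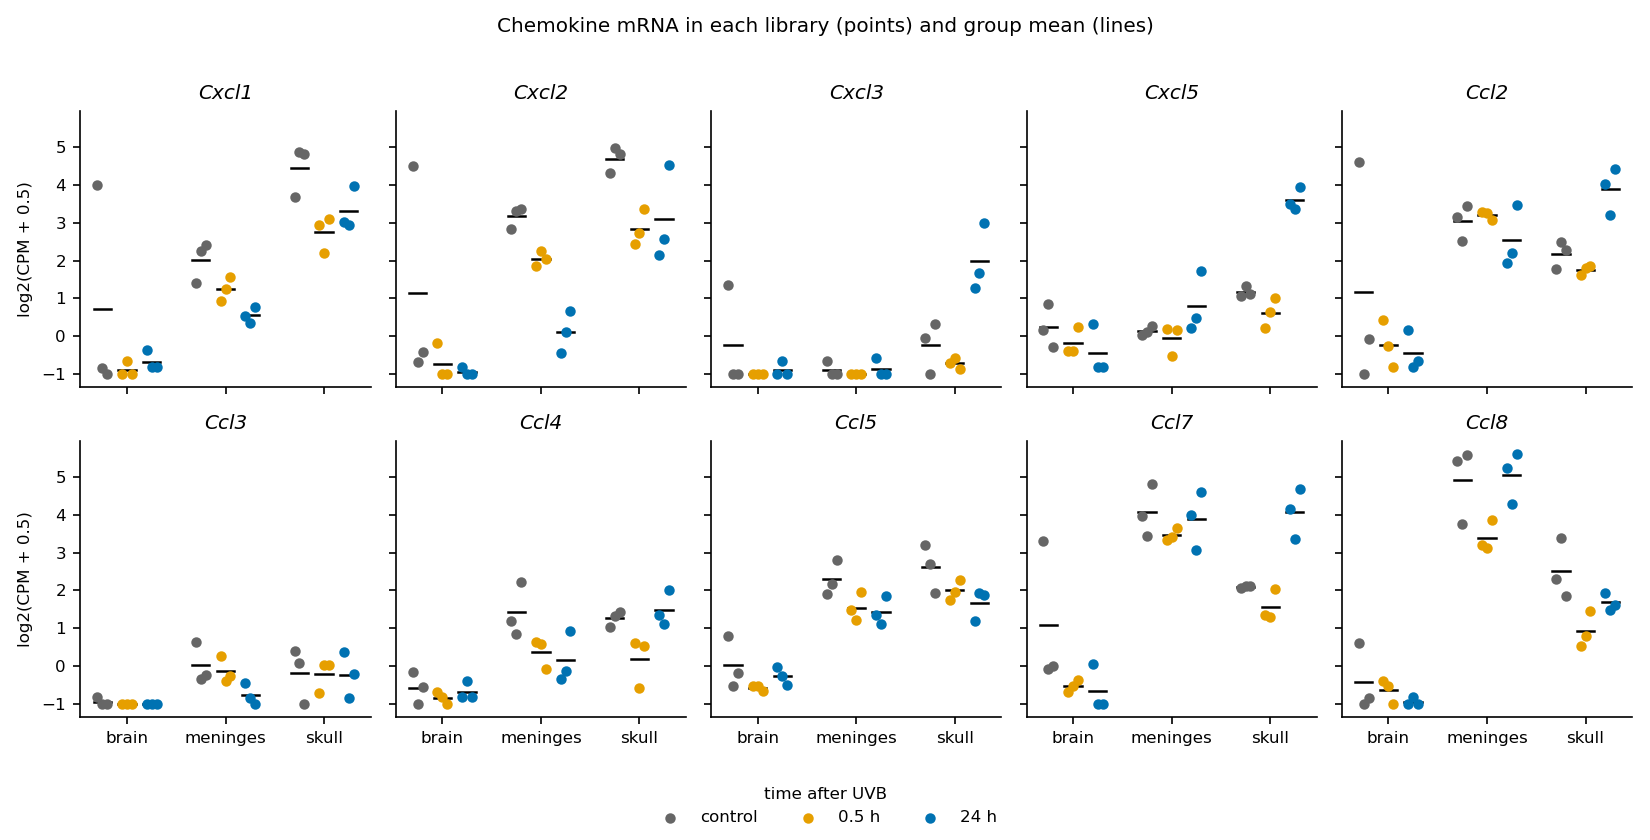
Level of each of the 10 chemokines in all 27 libraries, as log2(CPM + 0.5), in 9 groups (brain, meninges and skull by control, 0.5 h and 24 h after UVB); each point is 1 library and each line a group mean. Brain control 1 is the isolated high brain point for most genes, and Cxcl3, Cxcl5, Ccl2 and Ccl7 are highest in skull at 24 h relative to the other skull groups.

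Without irradiation, the highest means were those of Ccl8 and Ccl7 in meninges and of Cxcl1 and Cxcl2 in skull, with ranges that overlapped the next genes. Levels are compared between genes as CPM per kilobase of the longest coding transcript (mean ± SD of 3 control libraries). In meninges Ccl8 stood at 66.4 ± 36.0, Ccl7 at 21.9 ± 11, Ccl2 at 9.80 ± 3.18 and Ccl5 at 8.65 ± 3.17. They were followed by Cxcl2 at 4.63 ± 0.90, Cxcl1 at 3.94 ± 1.5 and Ccl4 at 3.69 ± 2.34, with Ccl3, Cxcl5 and Cxcl3 below 1. In that order the ranges of mean ± SD separated Ccl4 from Ccl3 and Cxcl5 from Cxcl3, and overlapped between all other neighbours. In skull Cxcl1 stood at 23.9 ± 9.58, Cxcl2 at 13.9 ± 3.23, Ccl8 at 11.4 ± 7.11 and Ccl5 at 11.3 ± 5.04. Ccl2 followed at 5.06 ± 1.35 and Ccl7 at 4.73 ± 0.12, then Ccl4 at 2.90 ± 0.51 and Cxcl5 at 1.11 ± 0.13. Ccl3 and Cxcl3 were below 1. The ranges of mean ± SD separated Ccl7 from Ccl4 and Ccl4 from Cxcl5, and overlapped between the other neighbours. At 24 h the order in skull was led by Ccl7 at 21.6 ± 9.46 and Ccl2 at 18.5 ± 7.33, ahead of Cxcl1 at 10.4 ± 4.65, Cxcl5 at 7.46 ± 1.66 and Cxcl2 at 5.73 ± 5.56, and the ranges of each of these neighbours overlapped.

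Between untreated tissues, 2 of the 10 members were higher and 2 lower in skull than in meninges, where 21.6% of the 21500 genes tested were higher and 26.5% lower, so the counts lie near the background. All adjusted p-values here and below are Benjamini-Hochberg values over all genes tested with edgeR's quasi-likelihood test. Cxcl1 was higher in skull by a log2 difference of 2.81 ± 0.96 (SE; adjusted p = 0.021) and Cxcl5 by 1.72 ± 0.61 (adjusted p = 0.0224). Ccl8 was lower by −2.31 ± 0.57 (adjusted p = 0.00222) and Ccl7 by −1.99 ± 0.74 (adjusted p = 0.0318). The fit of all 27 libraries shares its spread with brain control 1. In a fit of the 18 meninges and skull libraries alone, chosen after seeing the data, the same 4 genes passed and Cxcl2 was also higher in skull, by 1.83 ± 0.53 (adjusted p = 0.00953). Of all genes 10199 of 19626 passed in that fit. In the 27-library fit Cxcl1 did not pass without meninges control 1 (adjusted p = 0.0763) or 2 (0.0507) or skull control 2 (0.0563) or 3 (0.0512). Cxcl5 did not pass without meninges control 1 (0.0631) or 2 (0.0578) or skull control 2 (0.0603), and Ccl7 did not without meninges control 3 (0.137) or skull control 1 (0.0830), 2 (0.0798) or 3 (0.0769), with no filter on low counts (0.0713) or by DESeq2 (0.0523). Ccl8 passed whichever library was left out.

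Compared with untreated brain, 5 members were higher in meninges and 1 lower, against 36.8% and 33.7% of all genes. The higher ones were Ccl8 (log2 difference 6.11 ± 0.74, adjusted p = 2.83e-07), Ccl4 (3.33 ± 0.75), Ccl5 (2.70 ± 0.48), Ccl7 (2.16 ± 0.73, adjusted p = 0.0131) and Ccl3. Ccl3 had 27 counts over the meninges controls and 2 over the brain controls, a depth-adjusted ratio of 15.7 (95% interval 3.95 to 136, exact and for counting error). The lower one, Cxcl3, had 2 counts against 56, all 56 of them in brain control 1, and without that library its log2 difference was 2.59 (adjusted p = 0.411). In skull 6 members were higher than in brain, against 37.3% of all genes: Ccl3, Ccl4, Ccl5, Ccl8, Cxcl1 (2.19, adjusted p = 0.0385) and Cxcl5 (1.36, adjusted p = 0.0401). Cxcl5 was the 1 member that passed the filter on low counts in the brain libraries alone. The others entered this fit through meninges and skull libraries, which favours calls of higher than brain, so the counts of such calls are a description. Without brain control 1, 8 members were higher in meninges (all but Cxcl3 and Cxcl5), where 14765 of 22329 genes passed in either direction. In skull 9 were higher (all but Cxcl5, adjusted p = 0.110), where 15989 genes passed in either direction. Both totals include lower genes, so they are not a background for the counts of higher members. Ccl2 in meninges then stood higher than in brain by 5.01 and Ccl7 by 5.07. Other single libraries also ended calls: in meninges Cxcl3 without meninges control 2 (adjusted p = 0.115) or 3 (0.112), as it did with no filter (0.0730), by DESeq2 (0.0803) or with the block (0.118), Ccl3 without brain control 3 (0.0505) or meninges control 1 (0.0758) and Ccl7 without brain control 3 (0.0507) or meninges control 3 (0.0665). In skull this held for Cxcl1 without brain control 2 (0.0950) or 3 (0.0832) or skull control 2 (0.0912) or 3 (0.0838), for Ccl3 without brain control 3 (0.0501) or skull control 1 (0.0696), and for Cxcl5 without brain control 3 (0.151) or skull control 1 (0.0554), 2 (0.0922) or 3 (0.0568). The Cxcl1 call in skull also ended with no filter (0.0729), and the Cxcl5 call with RLE scaling (0.0515) and by DESeq2 (0.0512).

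After irradiation most of the calls were in skull. At 24 h, Cxcl3, Cxcl5, Ccl2 and Ccl7 rose in skull by 3.65- to 9.86-fold and Ccl5 fell, while Cxcl1 and Cxcl2, which act on the same receptor as Cxcl3 and Cxcl5, had lower values than control. In the meninges Cxcl1 and Cxcl2 fell by 24 h and the Ccr2 ligands did not pass the test. At 0.5 h Ccl8 fell in skull. In skull at 24 h, 4 members rose, where 10.6% of the 17426 genes tested did, and 1 fell, where 10.4% did, a share near the background. Cxcl3 passed the filter on low counts through its 24 h group, which favours a call. That leaves Cxcl5, Ccl2 and Ccl7 beside the share of genes that rose. Their levels correlated with each other over the skull libraries (r between 0.96 and 0.98). The members were chosen with earlier results of these data known, so their count beside that share is a description. In meninges at 24 h, 2 members fell against 4.45% of 18542 genes.

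**Figure D2:**
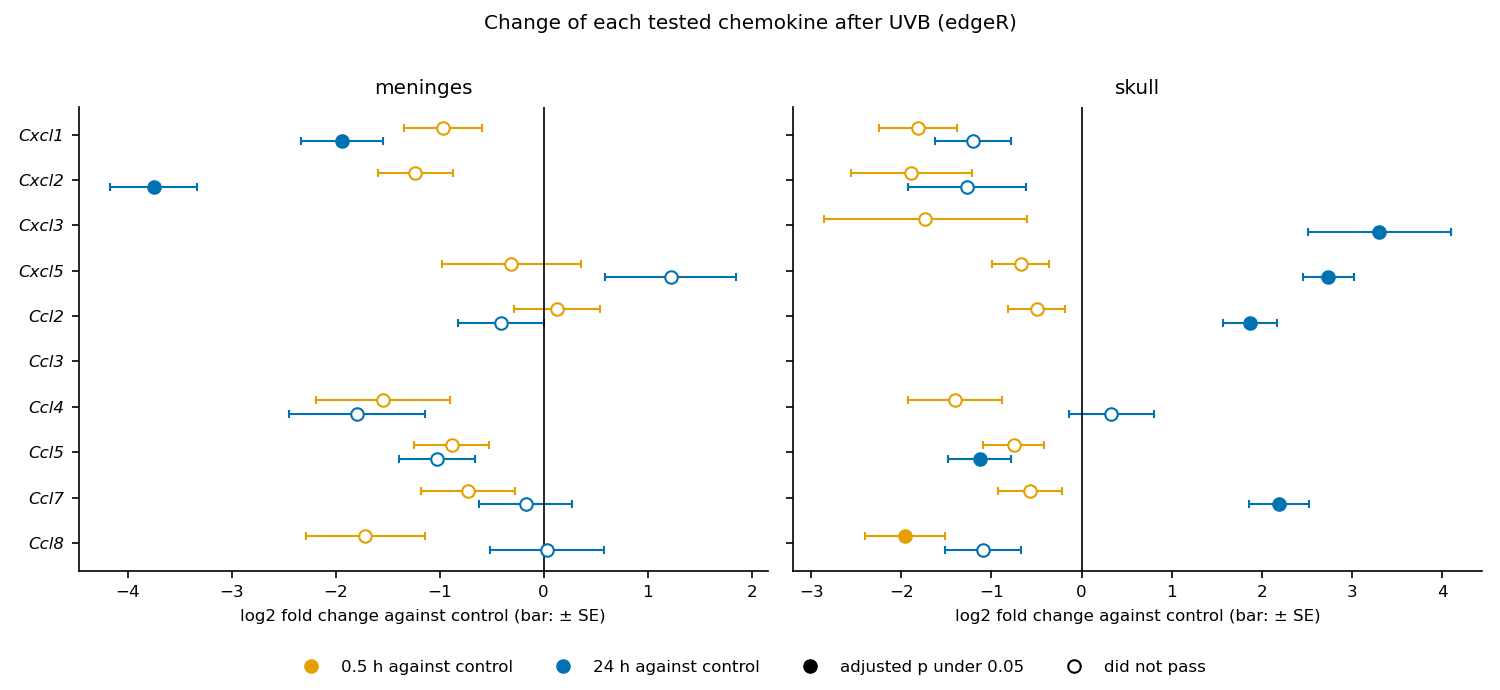
Log2 fold change against control with its SE for each tested chemokine in meninges and skull at 0.5 h and 24 h after UVB, 3 libraries a group; filled points passed an adjusted p of 0.05. Cxcl3, Cxcl5, Ccl2 and Ccl7 lie between 1.87 and 3.30 in skull at 24 h, and Cxcl2 lies at −3.75 in meninges at 24 h.

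Cxcl5, a Cxcr2 ligand made by epithelial, stromal and myeloid cells, was at 1.60, 1.99 and 1.66 CPM in the 3 untreated skull libraries. At 0.5 h it was at 0.66, 1.06 and 1.53 and at 24 h at 10.8, 9.73 and 14.7. All 24 h libraries lay well above every other skull library, and the 0.5 h values lay below the controls. Cxcl5 rose 6.67-fold at 24 h (log2 fold change 2.74 ± 0.28, adjusted p = 6.89e-05) and by 3.41 ± 0.29 between 0.5 h and 24 h (adjusted p = 6e-05). In meninges Cxcl5 was at 0.534, 0.593 and 0.709 CPM in controls, 0.642, 0.202 and 0.618 at 0.5 h and 0.658, 0.888 and 2.79 at 24 h. The 24 h libraries overlapped the controls and lay just above the 0.5 h libraries, the highest value being meninges 24 h 3. The log2 fold change at 24 h was 1.22 against control and 1.53 against 0.5 h, each with an adjusted p of 0.268.

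Cxcl3, another Cxcr2 ligand, had 8, 0 and 11 counts in untreated skull and 2, 3 and 1 at 0.5 h. At 24 h it had 34, 44 and 121 counts, or 1.92, 2.69 and 7.38 CPM. Every 24 h library exceeded every control, and skull 24 h 3 held more than the other two together. Cxcl3 rose 9.86-fold at 24 h (log2 fold change 3.30 ± 0.79, adjusted p = 0.0151). The call ended without skull control 1 (adjusted p = 0.0503) or without skull 24 h 3 (log2 fold change 2.51, adjusted p = 0.0617). Against 0.5 h the rise was 5.03 ± 0.93 (adjusted p = 0.00566). In meninges Cxcl3 was close to absent, with 2 counts in control 1, 3 counts in 24 h 1 and 0 in the other 7 libraries, and was not tested there.

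Cxcl1, the Cxcr2 ligand made widely by stromal and endothelial cells, was at 12.2, 28.5 and 27.6 CPM in untreated skull. At 0.5 h it was at 7.14, 4.07 and 8.09 and at 24 h at 7.52, 7.16 and 15. The 0.5 h values all lay below the controls, whereas skull 24 h 3 overlapped the lowest control. The log2 fold change was −1.82 ± 0.43 at 0.5 h (adjusted p = 0.052) and −1.20 ± 0.42 at 24 h (adjusted p = 0.0776), neither past the threshold. Without skull control 1 both passed, at 0.5 h with an adjusted p of 0.0259 and at 24 h with −1.50 and 0.0233, and without skull 24 h 3 the 24 h value was −1.63 (adjusted p = 0.0346). With the replicate number as a block the adjusted p was 0.0386 at 0.5 h and 0.0413 at 24 h, and by DESeq2 it was 3.53e-05 and 0.00509.

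Cxcl2, the ligand made mainly by macrophages and neutrophils, was at 19.1, 30.9 and 27.3 CPM in untreated skull. It was at 4.92, 6.07 and 9.78 at 0.5 h and at 3.96, 5.45 and 22.6 at 24 h. The 0.5 h libraries lay below all controls, and at 24 h the third library stood at control level and the other two did not. The log2 fold change was −1.89 ± 0.67 at 0.5 h (adjusted p = 0.163) and −1.28 ± 0.65 at 24 h (adjusted p = 0.222). Without skull 24 h 3 the 24 h value was −2.45 (adjusted p = 0.00167). With the replicate number as a block its adjusted p was 0.0435, and in a fit of the 2 groups alone the 0.5 h comparison had an adjusted p of 0.0160.

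Skull 24 h 3 held the highest level of Cxcl1, Cxcl2, Cxcl3, Cxcl5, Ccl2, Ccl4 and Ccl7 among the skull libraries of that time. It also had the highest sum of the 10 early response genes, such as Fos, Jun and Egr1, which respond within minutes to stimulation and handling. That sum was 2224 CPM in this library, 837 in the lowest of the 24 h group and between 3388 and 4057 in the controls. Of those genes 7 of 10 fell in skull at 24 h, against 10.4% of all genes. Among them were Nr4a1 (−2.12), Ier2 (−1.40) and Jun (−1.37), and none of the list was at 0. Their part in the chemokine values was not tested.

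In the meninges Cxcl2 was at 6.68, 9.37 and 9.75 CPM in controls, at 3.09, 4.23 and 3.65 at 0.5 h and at 0.239, 0.592 and 1.08 at 24 h. The 3 groups did not overlap and stepped down with time. Cxcl2 fell 13.4-fold by 24 h (log2 fold change −3.75 ± 0.42, adjusted p = 0.000611), and this call held whichever library was left out. Between 0.5 h and 24 h, 1 member, Cxcl2, fell (−2.52 ± 0.41, adjusted p = 0.0141), against 1.27% of all genes. That call ended without meninges 0.5 h 1 (adjusted p = 0.0522), 0.5 h 2 (0.0560) or 24 h 2 (0.0579). At 0.5 h against control the value was −1.23 ± 0.36 (adjusted p = 0.151).

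Cxcl1 in the meninges was at 2.14, 4.27 and 4.85 CPM in controls, 1.40, 1.88 and 2.47 at 0.5 h and 0.958, 0.77 and 1.21 at 24 h. The 24 h libraries lay below all others, and the 0.5 h group reached into the controls. Cxcl1 fell 3.83-fold by 24 h (−1.94 ± 0.39, adjusted p = 0.0145), a call that ended without meninges control 2 (adjusted p = 0.0518) or meninges 24 h 2 (0.0594). Early response genes summed to between 2445 and 3056 CPM in the meninges controls and 743 and 2073 at 24 h, with none at 0. Of these 5 of 10 were lower, against 4.45% of all genes, among them Jun (−1.37), Atf3 (−1.92) and Fosb (−2.17). Neutrophil markers summed to between 408 and 981 in controls and 373 and 421 at 24 h, with none of the 14 tested past the threshold and none at 0. The skeletal muscle sum was between 29.0 and 6304 in controls and 11 and 115 at 24 h. The part of these lists in the fall of Cxcl1 and Cxcl2 was not tested.

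At 0.5 h no member passed in the meninges, where 0.874% of all genes did. Of the members 5 had an unadjusted p under 0.05, as did 2517 of all 18542 genes. DESeq2 called Cxcl2 in that comparison (−1.24, adjusted p = 0.0122). Of the 8 members tested, 7 had negative values, the exception being Ccl2 at 0.13, and their median was −0.93, beside 0.01 over all genes.

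Ccl2, the main ligand of Ccr2, was at 2.91, 5.07 and 4.35 CPM in untreated skull and 2.58, 3.01 and 3.12 at 0.5 h. At 24 h it was at 15.7, 8.75 and 20.6. The 24 h libraries all lay above the other 6, and the 0.5 h group overlapped the controls. Ccl2 rose 3.65-fold at 24 h (log2 fold change 1.87 ± 0.30, adjusted p = 0.0014) and by 2.37 ± 0.31 from 0.5 h to 24 h (adjusted p = 0.00066). In meninges it was at 8.35, 5.22 and 10.3 CPM in controls, 9.28, 9.0 and 7.86 at 0.5 h and 3.35, 4.09 and 10.6 at 24 h. Those groups overlapped, with meninges 24 h 3 at control level, and the 24 h value was −0.41 (adjusted p = 0.609).

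Ccl7, which also acts on Ccr2 and lies beside Ccl2, followed the same course in skull. It was at 3.69, 3.81 and 3.87 CPM in controls, 2.04, 1.95 and 3.59 at 0.5 h and 17.1, 9.79 and 24.9 at 24 h. The groups did not overlap, with 0.5 h lowest and 24 h highest. Ccl7 rose 4.56-fold at 24 h (2.19 ± 0.33, adjusted p = 0.00128) and by 2.76 ± 0.34 from 0.5 h (adjusted p = 0.000669). In meninges it was at 15, 10.3 and 27.4 CPM in controls, 9.63, 10.1 and 12.1 at 0.5 h and 15.3, 7.94 and 23.5 at 24 h. All 3 groups overlapped, and the 24 h value was −0.17 (adjusted p = 0.863). Beside the rises in skull, neutrophil markers summed to between 5054 and 7419 CPM at 24 h. Of these markers 2 of 15 were lower (Il1r2 −1.75, Camp −0.93), near the share of 10.4% over all genes, and none was at 0. Monocyte markers summed to between 2526 and 2670 in controls and 2677 and 2996 at 24 h. Of these 1 of 10 was higher, the receptor Ccr2 itself (0.73), near the share of 10.6% over all genes, and none was at 0. The part of both marker lists in the rises was not tested.

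Ccl8, the relative of Ccl2 and Ccl7, moved otherwise. In skull it was at 4.46, 9.96 and 3.11 CPM in controls, 0.96, 1.24 and 2.27 at 0.5 h and 3.34, 2.33 and 2.56 at 24 h. The 0.5 h libraries lay below all controls, of which control 2 was the highest, and the 24 h group overlapped the lowest control. Ccl8 was the 1 member that fell at 0.5 h in skull, against 2.94% of all genes (−1.96 ± 0.45, adjusted p = 0.032). The call ended without skull control 2 (−1.33, adjusted p = 0.0700), skull 0.5 h 1 (0.120) or 0.5 h 2 (0.141), in a fit of the 2 groups alone (0.0728) and with the replicate number as a block (0.0766). At 24 h the value was −1.09 ± 0.43 (adjusted p = 0.0905), and it passed without skull control 3 (−1.39, adjusted p = 0.0261).

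In the meninges, where Ccl8 had the highest mean of the members per kilobase in controls, it was at 42.0, 12.9 and 46.9 CPM in those controls. It was at 8.75, 8.20 and 14 at 0.5 h and 36.8, 19.0 and 48.2 at 24 h. The 0.5 h group was low, overlapping the controls through control 2 and lying below every 24 h library, and the 24 h group lay within or close to the range of the controls. The log2 fold change was −1.71 ± 0.57 at 0.5 h (adjusted p = 0.26) and 0.03 ± 0.55 at 24 h (adjusted p = 0.982). Between 0.5 h and 24 h it was 1.75 ± 0.57 (adjusted p = 0.198), past the threshold by DESeq2 (adjusted p = 0.0405) and with the replicate number as a block (1.67, adjusted p = 0.0438). Border macrophage markers, of the cells that line the meninges, summed to between 994 and 1355 CPM in controls, 1188 and 1374 at 0.5 h and 1323 and 1651 at 24 h, with none at 0. None of 10 was called at 0.5 h, and 3 were higher at 24 h, both against control and against 0.5 h. Of all 18542 genes 736 and 198 were higher in those comparisons. Their part in the Ccl8 values was not tested.

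At 0.5 h all 9 members tested in skull (all but Ccl3) had negative values, which come from the same 6 libraries. The median was −1.40, beside 0.00081 over all genes. For 6 of them, Cxcl1, Cxcl2, Cxcl5, Ccl4, Ccl7 and Ccl8, every 0.5 h library lay below every control, against 14.2% of all genes. Neutrophil markers then summed to between 7688 and 11232 CPM, with 1 of 15 lower (Il1r2), beside 2.94% of all genes. The early response sum lay between 3687 and 4112 with 0 of 10 called.

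Ccl5, a ligand of Ccr1 made by T cells and natural killer cells, was at 8.68, 6.04 and 3.32 CPM in untreated skull, 2.88, 3.42 and 4.39 at 0.5 h and 1.81, 3.30 and 3.17 at 24 h. The 24 h libraries lay just below the lowest control. Ccl5 fell 2.19-fold at 24 h (−1.13 ± 0.35, adjusted p = 0.0372). The call ended without skull control 1 (−0.77, adjusted p = 0.170), control 2 (0.0758), 24 h 1 (0.138), 24 h 2 (0.0555) or 24 h 3 (0.0720), in a fit of the 2 groups alone (0.0637) and with the replicate number as a block (0.0803). T and natural killer cell markers summed to between 49.2 and 99.9 CPM in skull controls and 29.9 and 43.3 at 24 h, with none at 0. Of these 4 of 12 were lower (Cd4, Gzmb, Gzma and Cd3e), against 10.4% of all genes, and their part in the Ccl5 value was not tested. In meninges Ccl5 ran from 3.27 to 6.5 CPM in controls, 1.81 to 3.37 at 0.5 h and 1.66 to 3.11 at 24 h. The 24 h group lay below the controls, with a log2 fold change of −1.02 (adjusted p = 0.115).

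Ccl4, a macrophage inflammatory protein, was at 1.55, 1.99 and 2.21 CPM in untreated skull, 1.02, 0.177 and 0.951 at 0.5 h and 2.04, 1.65 and 3.54 at 24 h. The 0.5 h libraries lay below all the others. Against control the value was 0.33 at 24 h (adjusted p = 0.675). From 0.5 h to 24 h 5 members passed as higher in skull, where 8.39% of all genes did: Ccl4, Cxcl5, Ccl2, Ccl7 and also Cxcl3, which the filter kept through its 24 h group, so its call adds nothing to the count. Ccl4 rose by 1.73 ± 0.51 (adjusted p = 0.0381), a call that ended without skull 0.5 h 1 (adjusted p = 0.0537), 0.5 h 2 (0.0864), 0.5 h 3 (0.0572), 24 h 1 (0.0736) or 24 h 3 (0.160). In meninges Ccl4 ran from 1.30 to 4.20 CPM in controls, from 0.449 to 1.05 at 0.5 h and from 0.299 to 1.40 at 24 h. The 0.5 h libraries lay below all controls, with a log2 fold change of −1.54 that did not pass. At 24 h, where the highest library overlapped the lowest control, the log2 fold change was −1.79 (adjusted p = 0.12). Ccl3, the relative of Ccl4, had between 0 and 16 counts in the libraries of these tissues and did not pass the filter in either. Its counts were 14, 10 and 0 in untreated skull, 2, 9 and 10 at 0.5 h and 14, 1 and 6 at 24 h, which overlap. In meninges they were 16, 5 and 6 in controls, 12, 4 and 6 at 0.5 h and 4, 1 and 0 at 24 h, where the 24 h counts are the lowest.

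In the brain the chemokines were near the limit of detection outside brain control 1. Cxcl5 was the 1 member tested, with 17, 20 and 5 counts in controls, 4, 4 and 10 at 0.5 h and 11, 1 and 1 at 24 h. Those groups overlapped. Its log2 fold change was −0.87 at 0.5 h (adjusted p = 0.988), −1.30 at 24 h (adjusted p = 0.428) and −0.43 between the times (adjusted p = 0.896). No member passed in these comparisons, with or without brain control 1 by edgeR or by DESeq2 with all libraries, and none had an unadjusted p under 0.05. Of all genes, 0.00550% passed at 0.5 h, 2.62% at 24 h and 0.220% between the times. With no filter on low counts Cxcl3 passed against control at 0.5 h (adjusted p = 0.00774) and at 24 h (0.0270), with all 56 of the control counts in brain control 1. At this depth Ccl3 was not detectable in the 8 other brain libraries, where 0 counts allow up to 3 in 120 M, and Cxcl1, Ccl4 and Ccl8 had at most 4 counts in any of them.

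**Figure D3:**
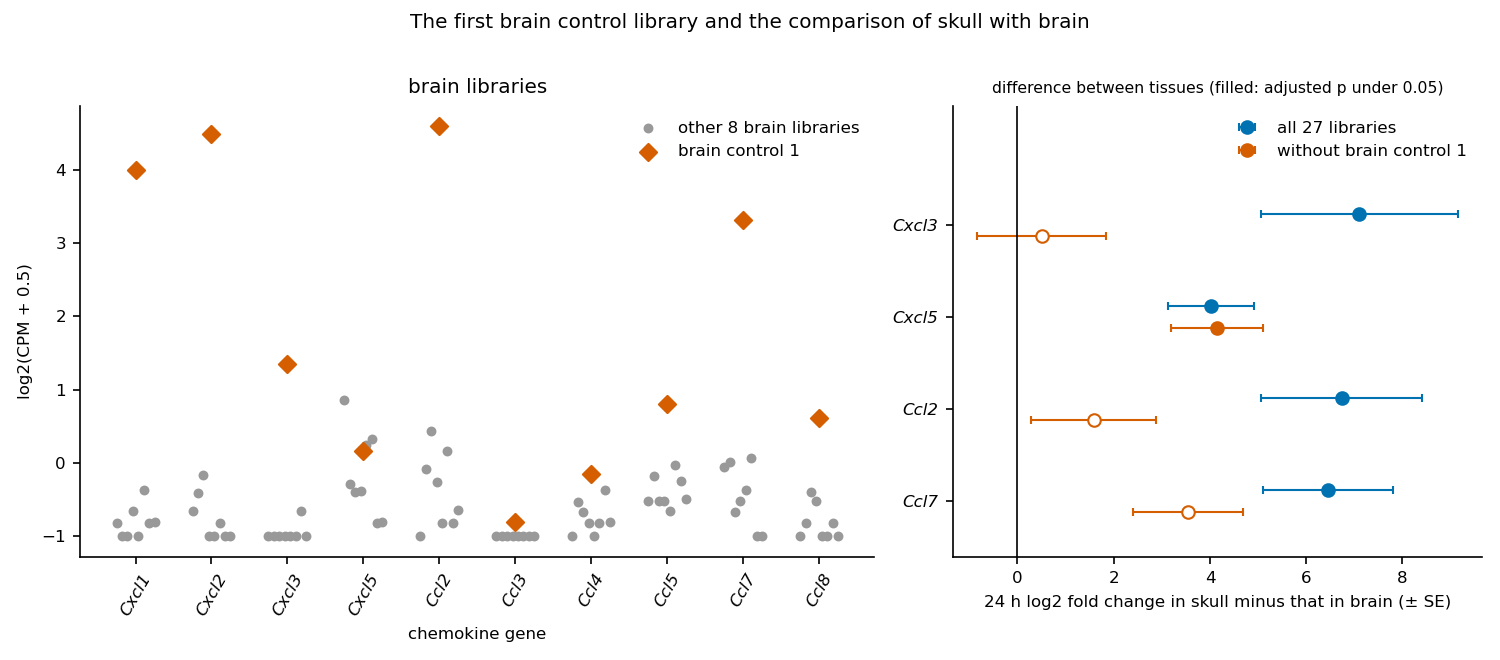
Left, levels of the chemokines in the 9 brain libraries as log2(CPM + 0.5), with brain control 1 as a diamond; right, the difference between skull and brain in the 24 h effect (log2, with SE) for Cxcl3, Cxcl5, Ccl2 and Ccl7 with all 27 libraries and without brain control 1. Without that library Cxcl5 stays at 4.15 and Ccl7 moves from 6.45 to 3.54.

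Whether the response differed between tissues was tested in the fit of all 27 libraries. At 24 h the effect in skull exceeded that in brain for 4 members, against 3.33% of all genes. The difference was 4.02 ± 0.89 for Cxcl5 (log2; adjusted p = 0.00757), 6.45 ± 1.36 for Ccl7 (adjusted p = 0.0068), 6.73 ± 1.68 for Ccl2 (adjusted p = 0.0201) and 7.10 ± 2.05 for Cxcl3 (adjusted p = 0.0452). Cxcl3 passed the filter through its skull 24 h libraries, so its value is a description. These values rest on brain control 1 for all but Cxcl5. Without that library Cxcl5 stood at 4.15 ± 0.96 (adjusted p = 0.0134). Ccl7 then stood at 3.54 ± 1.14 (adjusted p = 0.0819), Ccl2 at 1.58 ± 1.30 (0.586), and Cxcl3, at 0 in the remaining brain controls, had an adjusted p of 0.938. Ccl2 also did not pass without brain 24 h 2 (0.0588) or 24 h 3 (0.0526) or with the replicate number as a block (0.153). Cxcl3 did not pass without skull control 1 (0.0813), 2 (0.0754) or 3 (0.0541), brain 24 h 1 (0.113), 2 (0.0705) or 3 (0.101), or skull 24 h 1 (0.0581), 2 (0.0583) or 3 (0.111), nor with no filter (0.0918) or with the block (0.246).

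The same effect was compared between skull and meninges, a contrast that does not use the brain libraries. No member passed at 24 h, against 0.633% of all genes, and 0 did by DESeq2. An unadjusted p under 0.05 was found for 2 members, beside 2410 of 21500 genes. The differences were 2.38 for Ccl7 (adjusted p = 0.369) and 2.30 for Ccl2. In the fit of the 18 meninges and skull libraries they were 2.36 ± 0.59 (adjusted p = 0.119) and 2.28 ± 0.55 (adjusted p = 0.0933). The rise of Ccl2 and Ccl7 in skull is therefore not shown to differ from the meninges. Both fits took the libraries of the tissues as unpaired. Between meninges and brain at 24 h no member passed, against 1.32% of all genes. An unadjusted p under 0.05 was found for 3, beside 2988 of 21500 genes. DESeq2 called Ccl7, and edgeR called Cxcl5 without brain 24 h 1 and none without brain control 1. At 0.5 h no member's effect differed between meninges and brain, skull and brain or skull and meninges by edgeR, with or without brain control 1, or by DESeq2. The backgrounds were 0.00930%, 0.209% and 0.00930% of all genes. In that order 4, 3 and 0 members had an unadjusted p under 0.05, beside 1327, 2201 and 1254 of 21500 genes.

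Across the 9 skull libraries the ligands of Cxcr2 did not all vary together. Cxcl3, Cxcl5, Ccl2 and Ccl7 correlated with each other with Pearson's r between 0.88 and 0.98 (log2 levels). Cxcl1 and Cxcl2 had r = 0.89 with each other and between −0.08 and 0.12 with those 4. Ccl8 had r = 0.74 with Cxcl1, and Ccl5 had between −0.51 and −0.41 with the 4. In the meninges Cxcl1 and Cxcl2 had r = 0.91, Cxcl1 and Ccl5 0.86, and Ccl7 and Ccl8 0.82. These values describe 9 libraries of 3 groups, which share their group differences, library and depth.

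**Figure D4:**
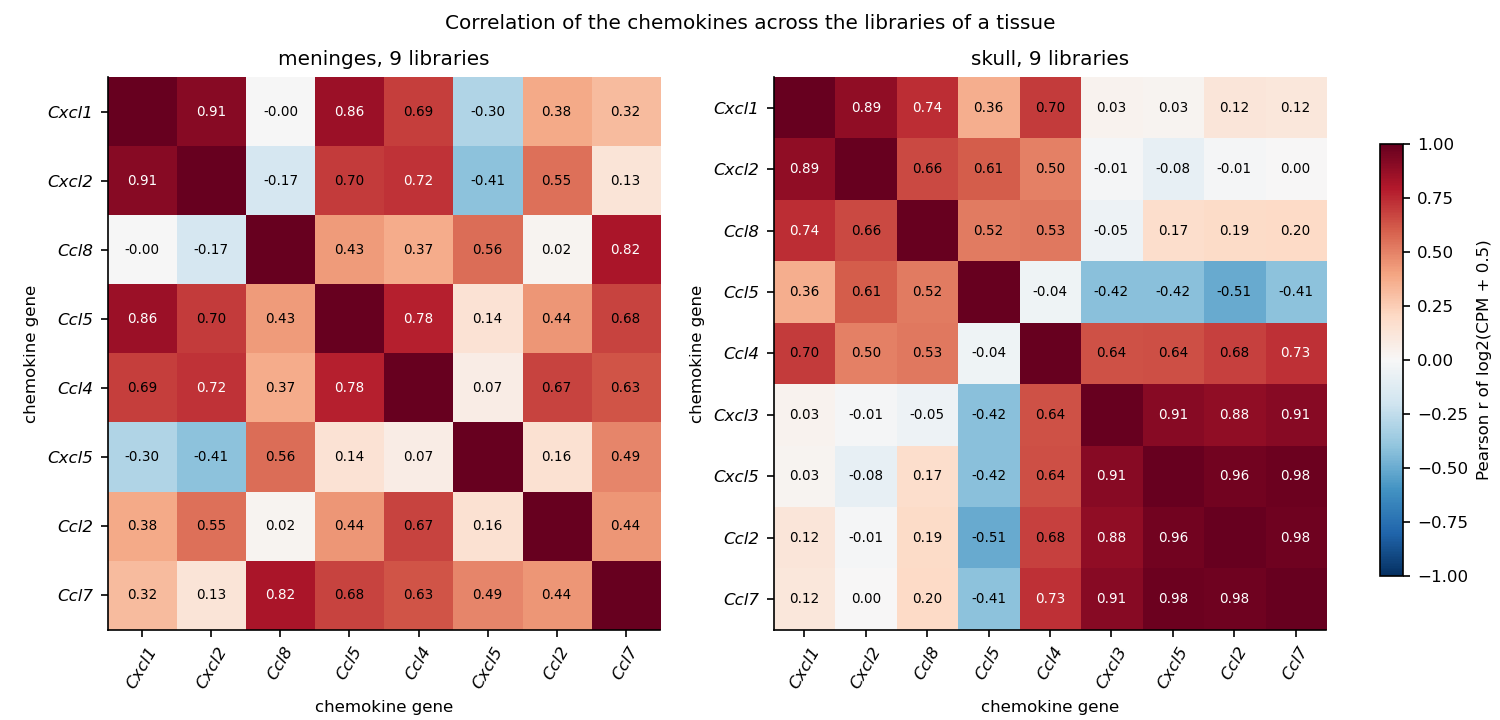
Pearson's r of log2 levels between members that passed the filter, over the 9 meninges libraries (8 genes) and the 9 skull libraries (9 genes). In skull Cxcl3, Cxcl5, Ccl2 and Ccl7 form a block of high values, and Cxcl1 and Cxcl2 form another.

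Of 19 chemokine receptors and decoys tested in skull at 24 h, 3 rose and 4 fell, where 10.6% and 10.4% of all genes did, so the count of those that rose lies near the background. The list had a median of 0.01 beside −0.0014 over all genes. Among the higher were receptors of Ccl2, Ccl7, Ccl3 and Ccl5: Ccr2 rose from 59.4 to 98.9 CPM (0.73, adjusted p = 0.0151) and Ccr1 from 42.1 to 63.3 (0.59, adjusted p = 0.0106). Ccrl2, which binds chemerin, fell (−1.61, adjusted p = 0.00333), as did Ackr3, a scavenger of Cxcl12 (−0.81, adjusted p = 0.00267). Cxcr2, the receptor of the Cxcl members, named for that role and not by the rule for list genes, had a value of 0.45 in skull at 24 h (adjusted p = 0.326) and 0.28 in meninges (adjusted p = 0.767). In meninges at 24 h 1 of 20 rose and 2 fell (median 0.06, beside 0.02 over all genes). Of all 18542 genes 736 rose and 825 fell, so the count of receptors that rose lies near the background. Ccr2 rose from 39.4 to 67.6 CPM (0.78 ± 0.18, adjusted p = 0.0288), and Ackr3 (−1.12) and Ccrl2 (−1.41) fell. At 0.5 h Cxcr6 rose in meninges (1.57, adjusted p = 0.0268), as 1 of 20 with a median of 0.09, where 68 of 18542 genes rose. Ccrl2 fell in skull at that time (−1.25, adjusted p = 0.0332), as 1 of 19 with a median of 0.35, against 2.94% of all genes. Ccr2, Dusp1, Pf4, F13a1, Pecam1 and Col1a1 stand on 2 of the gene lists used here.

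Among other chemokines, Cxcl9, an interferon-induced ligand of Cxcr3, fell at each time in skull, from 20.2 CPM to 4.47 at 0.5 h (−2.18, adjusted p = 0.00316) and 2.48 at 24 h (−3.03, adjusted p = 9.27e-05). In meninges Cxcl9 fell from 17.0 to 4.21 CPM by 24 h (−2.01, adjusted p = 0.00195). In skull 0 of 19 rose and 1 fell at 0.5 h, where 2.94% of all genes fell. At 24 h 1 rose and 1 fell, where 10.6% and 10.4% of all genes did. The gene that rose was Cxcl14 (0.92, adjusted p = 0.029). The medians were −0.16 and −0.055. In meninges none of 21 passed at 0.5 h. At 24 h 1 rose and 2 fell (median −0.30), where 736 and 825 of 18542 genes did. Cxcl12, which retains leukocytes in marrow, was higher (0.56) and the eosinophil ligand Ccl24 lower (−1.48).

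**Figure D5:**
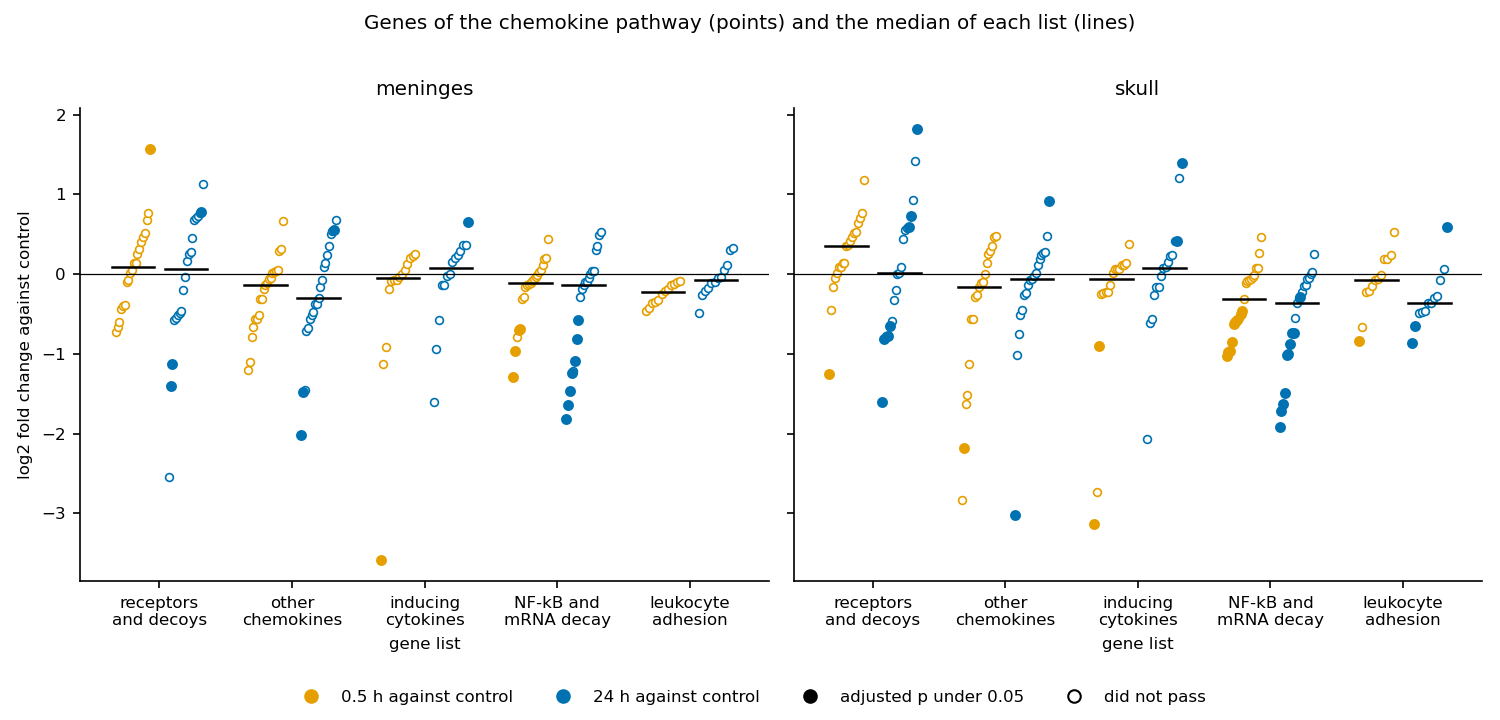
Log2 fold change against control of the tested genes of 5 lists (chemokine receptors and decoys, other chemokines, inducing cytokines, NF-kB genes with mRNA decay factors, and adhesion genes) in meninges and skull at 0.5 h and 24 h; points are genes and lines list medians. The NF-kB list has its median at −0.37 in skull at 24 h and at −0.13 in meninges at 24 h.

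Genes of NF-kB signalling and of chemokine mRNA decay that passed the test against control were all lower after irradiation in skull and meninges. In skull 9 of the 21 on the list fell at 0.5 h (median −0.31, against 2.94% of all genes lower) and 10 at 24 h (median −0.37, against 10.4%), and none rose. In meninges 4 fell at 0.5 h (median −0.11, where 94 of 18542 genes were lower) and 7 at 24 h (median −0.13, against 4.45%), again with none higher. At 24 h in skull Tnfaip3, an inhibitor of NF-kB that NF-kB itself induces, fell from 81.6 to 21.6 CPM (−1.92 ± 0.19, adjusted p = 0.000169). Nfkbia, the inhibitor IkB alpha, fell from 303 to 92.4 CPM (−1.71 ± 0.17, adjusted p = 0.000187), and Rel, an NF-kB subunit, from 59.4 to 29.6 (−1.01, adjusted p = 1.55e-05). Zc3h12a, a nuclease that degrades chemokine and cytokine messages, fell from 29.2 to 14.4 CPM (−1.01, adjusted p = 0.000871). In meninges at 24 h Tnfaip3 fell by 1.65 on the log2 scale, Nfkbia by 1.47 and Rel by 0.81. These lower genes were measured in the same skull libraries in which Cxcl3, Cxcl5, Ccl2 and Ccl7 were higher, and in the same meninges libraries in which Cxcl1 and Cxcl2 were lower. The early response genes given above fell in the same 24 h comparisons, and their part was not tested.

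Of the cytokines and receptors that induce chemokines, Il6 fell at 0.5 h in skull (−3.13, from 8.32 to 0.926 CPM, adjusted p = 0.0178) and in meninges (−3.58, from 3.18 to 0.257 CPM, adjusted p = 0.0192). Il1b, which encodes interleukin-1 beta, fell in skull at 0.5 h (−0.90, adjusted p = 0.0182). From 0.5 h to 24 h in skull 4 of 16 rose, against 8.39% of all genes, and none fell. Among them were Il1b (0.97), Il6 (2.57) and Il33 (1.25), an alarmin. Against control at 24 h 2 rose, against 10.6% of all genes, Il33 (1.39, adjusted p = 0.00377) and Tlr4 (0.41), with a median of 0.083. In meninges at 24 h 1 of 14 rose, where 736 of 18542 genes did. It was Csf1 (0.65, adjusted p = 0.00315), the growth factor of macrophages, and the list had a median of 0.08. Of 12 adhesion genes tested, none passed in meninges at either time. In skull Icam1, the integrin ligand on endothelium, fell at 0.5 h (−0.83, adjusted p = 0.00515) and 24 h (−0.86, adjusted p = 0.000767), Sele fell at 24 h (−0.65), and Selp rose at 24 h (0.59, adjusted p = 0.0494).

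The genes whose levels most resembled the mean standardised level of the members were ranked in each tissue over its 9 libraries. In skull they were Stat3 (r = 0.979), Phb2 (0.968), Tspo (0.966), Snrpd3 (0.965) and Il1b (0.962), of 13940 genes ranked against 9 members. In meninges they were H2-Q4 (0.963), Fkbp3 (0.962), B2m (0.958), Isg20 (0.956) and H2-T10 (0.952), of 14798 genes against 8 members. In brain, where the pattern is that of Cxcl5 alone, they were Dusp15 (0.915), Cd59a (0.914), Atp6v1d (0.903), Hmgn2 (0.900) and Ube2g1 (0.892), of 14157. With so many genes ranked over 9 libraries, these values are a description.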

How the data were processed

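Per the labels, RNA was extracted with TRIzol, enriched for poly(A) messages on magnetic beads and made into libraries for Illumina sequencing. The authors deposited whole-number counts for each gene symbol and library, not normalized. HISAT2 2.1.0 and mm10 are named per the submitters' processing notes. The counting tool, annotation and strand setting are recorded as not given in the sources used here.

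Counts were filtered with filterByExpr (minimum count 10, minimum total 15), scaled by TMM and tested with edgeR 4.0.16 (robust quasi-likelihood F test) in R 4.3.3 with limma 3.58.1. Each tissue was fitted from its 9 libraries. Differences between tissues used all 27. P-values were adjusted over all genes tested, at 0.05. SE was derived by dividing the size of the log2 fold change by the square root of F. CPM were scaled within each tissue, so levels set across tissues come from separately scaled sets, and 0.5 was added to CPM before logs in plots. Intervals of count ratios are exact (95%) and hold counting error alone, because the labels name no molecular identifiers and PCR copies are not independent molecules. No 2 libraries of a group were identical. The per-tissue test was also run on simulated data.

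Members, marker lists and pathway lists were chosen with earlier results of these data known. All members are named. List genes are named where their adjusted p was under 0.05, at most the 6 with the smallest p of a list, and some that met this rule are not reported here. Similar patterns are the 5 genes with the highest r, at a mean of at least 1 CPM. Alternatives were RLE scaling, no filter, DESeq2 1.42.0, the 2 groups alone, leaving libraries out in turn, and a block on replicate number. A fit of 18 libraries was added after seeing the data. Positions come from GENCODE M21 on GRCm38, promoters from RefSeq.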

Additional observations from a re-analysis of the deposited data

Results flagged for a closer look

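The 24 h effect differed between skull and brain for 4 of the chemokines by the test of the difference itself (edgeR's quasi-likelihood test, fit of 27 libraries). The difference was 7.10 for Cxcl3 (log2; adjusted p = 0.0452), 4.02 for Cxcl5 (0.00757), 6.73 for Ccl2 (0.0201) and 6.45 for Ccl7 (0.0068). Cxcl3 passed the filter on low counts through its skull 24 h libraries, which favours a difference, so its value is a description. Without brain control 1 the adjusted p was 0.938 for Cxcl3, 0.0134 for Cxcl5, 0.586 for Ccl2 and 0.0819 for Ccl7.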

How the results depend on the processing

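Of the counts of members called, 201 recomputed values stayed within 1.5 times and 27 moved. With no filter on low counts Cxcl3 was called in brain at 0.5 h and at 24 h, 1 member each, where 100 and 1214 of 33775 genes were. DESeq2 called 1 member in meninges at 0.5 h (511 of 15525 genes) and 2 in meninges between the times (947 of 16781). It called 2 in skull at 0.5 h (1441 of 15897) and 1 for the 24 h difference of meninges and brain (832 of 16214). For untreated skull against meninges it called 2 members, where 10748 of 24834 genes passed. Leaving out each library gave 1 to 2 members in meninges at 24 h, 0 to 1 in meninges between the times, 0 to 2 in skull at 0.5 h, 4 to 6 in skull at 24 h, 4 to 5 in skull between the times, 0 to 1 for the 24 h difference of meninges and brain and 1 to 5 for that of skull and brain. For untreated tissues the ranges were 4 to 8 for meninges against brain, 3 to 9 for skull against brain and 1 to 3 for skull against meninges. The ranges with a library left out have no share over all genes beside them and are a description. With the replicate number as a block 2 members were called in meninges between the times (241 of 18542 genes). For the 24 h difference of skull and brain 2 were called (1106 of 21500 genes). The labels do not say whether equal numbers pair the samples. Over the genes tested, of 27 pairs of the same number within a tissue 1 correlated above 0.1 (range −0.43 to 0.15). Of 27 between tissues 4 did (range −0.16 to 0.19). Those of meninges and skull at 24 h had r of 0.080, 0.189 and 0.190. In both groups Ccl7 was lowest in library 2 and highest in library 3. These values do not settle whether the samples pair. In the fit of 18 libraries chosen after seeing the data, 5 members differed between untreated skull and meninges. Of all genes 10199 of 19626 did, so the count of members lies near the background.

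Of single genes 702 values stayed, 77 lost and 14 gained a call, and 17 changed sign, all on leaving out a library. The ranges of log2 fold changes with each library left out were, in meninges at 0.5 h, −0.56 to 0.023 for Cxcl5 and −0.11 to 0.36 for Ccl2. In meninges at 24 h they were −0.59 to 0.31 for Ccl7 and −0.37 to 0.34 for Ccl8, and between the times −1.20 to 0.11 for Ccl4 and −0.43 to 0.14 for Ccl5. In skull they were −0.049 to 0.54 for Ccl4 at 24 h and −0.56 to 1.01 for Cxcl2 between the times, and in brain −2.43 to 0.17 for Cxcl5 between the times. None of these was called with all libraries. Cxcl3 in untreated meninges against brain, which was called, ran from −6.64 without meninges control 1, with the rest of its group at 0 and the value then no bound, to 2.59 without brain control 1. The cause of these changes was not tested. With 3 libraries a group, leaving out 1 also takes a replicate from the test, and members with few counts, chiefly Ccl3, Cxcl3 and nearly all members in brain, are limited by depth.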
